A study of Homo sapiens with 32 samples.

Results

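The regions described here are 1911 chromatin loops that were called in HEK293 cells after sorbitol and that paired, in a new combination, pieces of chromatin already used as loop anchors in untreated cells. They are called re-pairing loops. In situ Hi-C, which ligates and sequences DNA segments that lie close together in the nucleus, was performed on untreated HEK293 cells (a line derived from human embryonic kidney) and on HEK293 cells kept for 1 h in 200 mM sorbitol, a sugar alcohol that makes the medium hyperosmotic. This was done in a wild-type (WT) line and in a line of genotype eGFP-YAP, in which YAP, a co-activator of transcription, is tagged with a green fluorescent protein. There were, per the labels, 3 replicates for each WT condition and 4 for each eGFP-YAP condition (14 of the 32 samples of the series), and the design text states 1 h of serum starvation before sorbitol for the eGFP-YAP cells. How the fusion was made and whether the line is a single clone is not stated in the labels, and line and cell source cannot be told apart. Each condition has 1 loop list, so no value below has a replicate spread and no test between conditions was made. Intervals in brackets are 95% intervals. They cover only the counting error over loops or anchors, and neighbouring loops are not independent.

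The loops were selected on their called positions in the control and sorbitol lists, so the counts in this paragraph follow from the choice itself and carry no test. A loop has a left and a right anchor, each a bin of 5 kb. Of 5906 WT sorbitol loops, 4720 (79.9%) had no control loop with both anchors within 10 kb and are called sorbitol-only. The same held for 3816 of 5577 eGFP-YAP sorbitol loops (68.4%). A sorbitol-only loop was a re-pairing loop when some control loop of the same line had an anchor within 10 kb of its left anchor, and some had one within 10 kb of its right anchor. This gave 960 loops in WT, 20.3% of the sorbitol-only loops, and 951 in eGFP-YAP, 24.9%. A further 2371 and 1956 sorbitol-only loops had 1 such anchor, 1389 and 909 had none, and 1186 and 1761 sorbitol loops were shared with control. The share of all bins within 10 kb of a control anchor was not computed. The counts therefore do not show whether such anchors were paired more often than if each anchor met the rule separately. Just outside the limit of 10 kb, 405 re-pairing loops in WT and 310 in eGFP-YAP had a control loop whose farther anchor was 15 to 25 kb away. Just inside it, 486 WT and 448 eGFP-YAP shared loops had their farther anchor at 10 kb. Loops at 15 to 25 kb differ little in position from a control loop. For this reason the 555 WT and 641 eGFP-YAP re-pairing loops with no control loop within 25 kb are also described. They are given beside the results on arrangement, links and span ratio, and for some other values in the last section.

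Most long-range loops in mammalian cells are formed by cohesin, a ring complex that extrudes DNA until it meets the DNA-binding protein CTCF, and they typically join CTCF sites whose motifs point towards each other. Other loops join promoters and enhancers. Hyperosmotic stress draws water from the cell and condenses the nucleus, and it alters transcription and the contacts of chromatin.

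Sequences are shown for loops found in both lines, to let the CTCF motif at their anchors be read. The motif was searched by the consensus of its core, 14 bases long, on both strands with at most 1 mismatch. A match lay in 8.69% of all 5 kb bins of hg38. The capitals mark the match, with 20 bases on either side, and every sequence is written on the strand of the match. The first pair comes from a loop of chromosome 6 whose right anchor lies in STX7, a syntaxin of endosome fusion, and its matches point towards each other. The second pair comes from the longest loop found in both lines, on chromosome 4. Its right anchor has a match on either strand at nearly the same place, of which the one without a mismatch is shown. The last sequence lies in the chromosome 3 anchor that holds the start of CHCHD4, an import factor of the mitochondrial intermembrane space. The left match on chromosome 6 and the match in the CHCHD4 anchor have 1 mismatch each, and the other matches shown have none.
Left anchor on chromosome 6, chr6:132279669-132279722, plus strand: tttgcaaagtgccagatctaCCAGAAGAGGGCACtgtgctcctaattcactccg
Right anchor in STX7, chr6:132484323-132484376, minus strand: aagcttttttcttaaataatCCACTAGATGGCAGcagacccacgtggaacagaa
Left anchor on chromosome 4, chr4:120156290-120156343, plus strand: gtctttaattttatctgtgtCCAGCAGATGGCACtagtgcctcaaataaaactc
Right anchor on chromosome 4, chr4:121252385-121252438, minus strand: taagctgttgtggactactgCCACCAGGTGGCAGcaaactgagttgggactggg
CHCHD4 anchor on chromosome 3, chr3:14124858-14124911, plus strand: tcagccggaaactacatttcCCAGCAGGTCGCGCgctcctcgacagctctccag

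The first question was on which side of its anchors a re-pairing loop found the control partners. An anchor can have its control partners towards the new partner, away from it, or on both sides. Loops were called facing when all control partners of both anchors lay towards the new partner, in-line when one anchor had all its partners towards and the other all away, back-to-back when all partners of both lay away, and mixed when at least 1 anchor had partners on both sides. In WT, 362 of 960 re-pairing loops were facing, 37.7% (34.7 to 40.8), 337 were in-line, 214 were mixed and 47 were back-to-back, 4.9% (3.7 to 6.45). In eGFP-YAP, 260 of 951 were facing, 27.3% (24.6 to 30.3), 313 were in-line, 302 were mixed and 76 were back-to-back, 7.99% (6.43 to 9.89). Thus 25.3% of the WT anchors and 29.9% of the eGFP-YAP anchors formed a loop in a direction in which the control list gave them none.

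A comparison set called without sorbitol was taken on any control anchor of the line, not only on those of the re-pairing loops. It also differs in more than sorbitol. It comes from another line and cell source, which cannot be told apart. Its lists are also longer, with 18966 eGFP-YAP and 15180 WT control loops, against 5906 WT and 5577 eGFP-YAP sorbitol loops. Control loops of the other line were selected by the same rule against the control anchors of this line, which gave 3595 loops for WT anchors and 2050 for eGFP-YAP anchors. Of these, 47.6% (46.0 to 49.3) and 42.8% (40.7 to 45.0) were facing, a higher share than among the re-pairing loops. Back-to-back loops made up 0.918% (0.654 to 1.29) and 0.732% (0.444 to 1.2) of them, and their intervals lay below those of the re-pairing loops. With loops that had a control loop within 25 kb left out of both sets, 27.7% and 20.6% of the re-pairing loops were facing against 43.0% and 33.1% of the other line's control loops. Back-to-back loops then made up 8.11% and 11.5% against 1.3% and 1.11%.

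Span, the distance between the anchors, moves with these classes. The median span was 335 kb in WT and 345 kb in eGFP-YAP for facing loops, 230 and 225 kb for in-line loops, and 175 and 145 kb for back-to-back loops. The other line's control loops were longer than the WT re-pairing loops, with medians of 355 kb and 275 kb. Among loops under 200 kb, 28.5% of the WT re-pairing loops were facing against 28.0% of the other line's, so the groups did not separate there, while in eGFP-YAP the shares were 15.1% and 28.3%. At 200 kb and over, the facing shares were 42.4% against 53.3% in WT and 33.9% against 685 of 1369 loops (47.4 to 52.7) in eGFP-YAP. Back-to-back loops were more frequent among re-pairing loops in both span classes, at 8.59% against 2.0% and 3.0% against 0.608% in WT, and at 15.1% against 1.03% and 4.19% against 0.584% in eGFP-YAP.

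**Figure D1:**
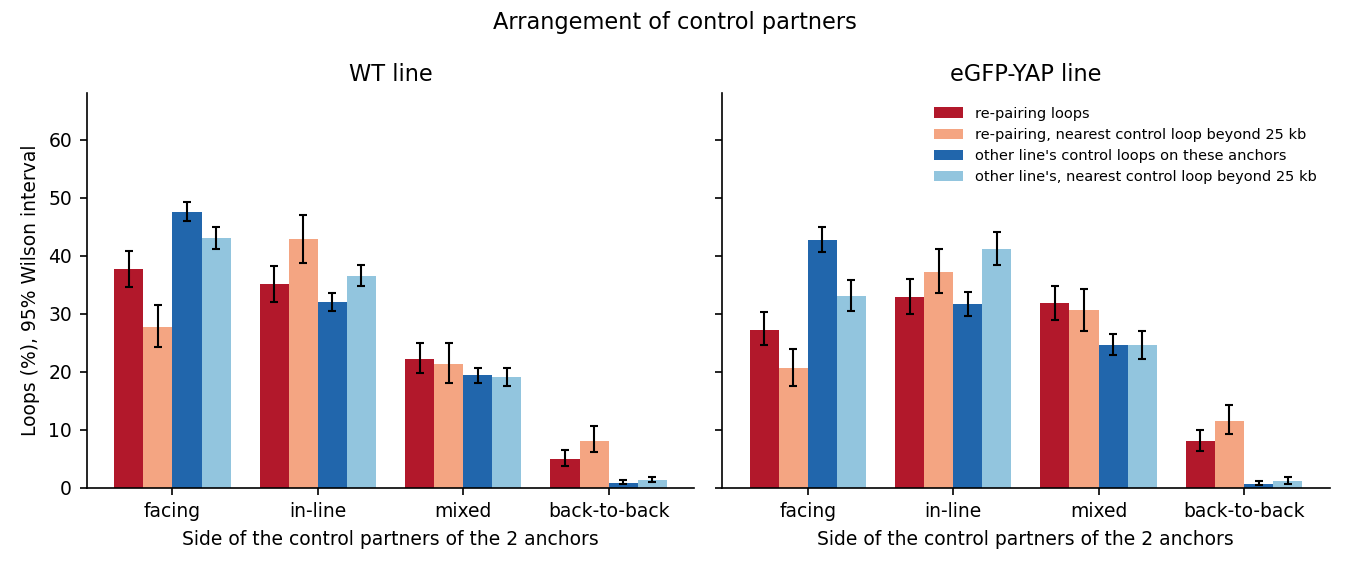
Share of loops (%) in each arrangement of control partners, for re-pairing loops (reds) and for the other line's control loops selected on any control anchor of the line (blues), with 95% Wilson intervals. Pale bars leave out loops with a control loop within 25 kb. Facing loops are a smaller share and back-to-back loops a larger share of the re-pairing loops in both lines.

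The second question was whether the anchors were already linked through other control loops. A partner common to both anchors was present for 239 WT re-pairing loops, 24.9% (22.3 to 27.7), and for 274 in eGFP-YAP, 28.8% (26.0 to 31.8). The common partner lay between the anchors for 80 and 73 loops, so that the new loop spanned a chain of control loops, and outside them for 166 and 210 loops. A chain of 3 control loops linked the anchors of 178 and 196 loops. No chain of control loops of any length linked the anchors of 433 WT loops, 45.1% (42.0 to 48.3), or of 388 eGFP-YAP loops, 40.8% (37.7 to 44.0). Without the loops that had a control loop within 25 kb, no chain was found for 55.1% and 47.3%, and a common partner was present for 25.4% and 27.8%.

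Shared sorbitol loops had a common partner more often. Among the 472 WT and 1093 eGFP-YAP shared loops that had other control loops at both anchors, the share was 47.5% (43.0 to 52.0) and 56.1% (53.1 to 59.0). For the other line's control loops it was 27.5% (26.1 to 29.0) for WT anchors, whose interval overlapped that of the re-pairing loops, and 40.0% (37.9 to 42.1) for eGFP-YAP anchors. Loops with the common partner between the anchors had the highest scores, with a median score percentile of 62.3 in WT and 71.1 in eGFP-YAP, against 44.2 and 40.8 with the common partner outside. The percentile ranks the caller's peak score within the sorbitol list.

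For a background, control anchors within 10 kb of each other were chained into sites, and a common partner was here a site joined to both. This differs from the definition above, so the shares are not of the same quantity. All pairs of such sites that no control loop joined, from 30 kb to 2.5 Mb apart, were counted. Of 417691 such pairs in WT, re-pairing loops joined 763 (0.183%), and of 456266 in eGFP-YAP they joined 820 (0.18%). A further 194 WT and 129 eGFP-YAP loops fell within 1 site or on a joined pair, 2 and 1 fell on a pair that another re-pairing loop joined, and 1 in each line lay outside the range of distances. The first of these arises because neighbouring anchors were merged into sites of up to 50 and 75 kb. Between 200 and 500 kb, pairs with a common control partner were joined in 2.11% (1.76 to 2.54) of cases in WT and pairs without one in 0.544% (0.482 to 0.615). The eGFP-YAP values were 1.67% (1.4 to 1.99) and 0.508% (0.448 to 0.575). Under 200 kb the intervals of pairs with and without a common partner overlapped, at 1.0% and 0.845% in WT and 1.04% and 0.968% in eGFP-YAP. The other line's control loops differed there as well as farther out: they joined 3.67% of pairs with a common partner and 1.96% of those without in WT, and 2.85% and 1.34% in eGFP-YAP. From 500 kb to 1 Mb, re-pairing loops joined 1.74% against 0.0972% in WT and 0.746% against 0.103% in eGFP-YAP.

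**Figure D2:**
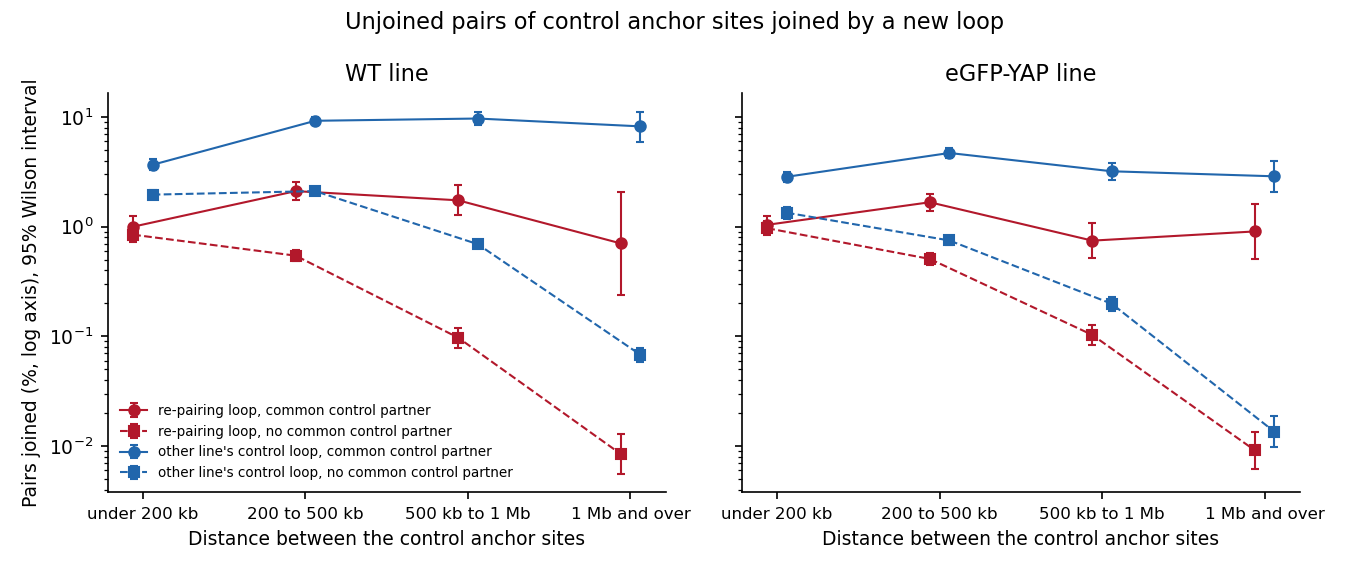
Share of unjoined pairs of control anchor sites (%, log axis) that a re-pairing loop (red) or the other line's control loop (blue) joined, by the distance of the sites, for pairs with (circles, solid line) and without (squares, dashed line) a common control partner. Bars are 95% Wilson intervals. The red symbols coincide under 200 kb and part at larger distances.

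Where an anchor had control partners on the side of the new partner, the new loop reached past all of them somewhat more often than not. In 54.1% of such WT anchors and 54.3% of eGFP-YAP anchors all these control partners were nearer than the new one, in 27.1% and 24.7% all were farther, and the rest had both. The ratio of the new span to the control span nearest to it had a median of 1.1 (1.09 to 1.13) in WT and 1.13 (1.1 to 1.16) in eGFP-YAP. Beyond 25 kb of a control loop the median was 1.3 (1.24 to 1.37) in either line. For the other line's control loops it was 1.22 in WT and 1.01 in eGFP-YAP, and beyond 25 kb 1.46 and 1.0, so the re-pairing loops exceeded the comparison set in eGFP-YAP and not in WT. The new partner lay a median of 75 kb from the nearest control partner in either line.

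The re-pairing loops often interleaved with control loops. In WT 66.5% (63.4 to 69.4) did so with at least 1 control loop, meaning that exactly 1 of their anchors lay inside it, and in eGFP-YAP 70.7% (67.7 to 73.5). The other line's control loops did so in 54.1% (52.4 to 55.7) and 60.7% (58.6 to 62.8). Sorbitol-only loops with no control anchor were close to the re-pairing loops in eGFP-YAP, at 69.1%, and lower in WT, at 58.9%.

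Control loops at the anchors of re-pairing loops numbered 2631 of 15180 in WT and 2900 of 18966 in eGFP-YAP. Of these, 12.5% (11.3 to 13.9) and 15.9% (14.6 to 17.3) were called again with sorbitol, compared with 14.5% (13.3 to 15.7) and 17.5% (16.2 to 18.9) at the anchors of sorbitol-only loops with 1 control anchor. Over all control loops the share was 7.81% (7.4 to 8.25) and 9.28% (8.88 to 9.7), lower than at the re-pairing anchors. All control loops include those with no sorbitol anchor nearby, which cannot be called again. A higher share at the re-pairing anchors is therefore built into their selection. Neither anchor had any control loop called again for 592 WT re-pairing loops, 61.7%, and for 469 eGFP-YAP loops, 49.3%. Both anchors had one called again for 60 and 85 loops. The loops with the common partner between the anchors were those in which neither anchor had one called again least often, at 45.0% and 27.4%. The control loops that were called again had a median control score percentile of 70.4 and 67.8, against 47.7 and 45.5 for those that were not.

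The anchors of the re-pairing loops differed in sequence features by their arrangement. Gene starts are the 5′ ends of the protein-coding genes of GENCODE release 44. A gene start lay in 19.1% (17.4 to 20.9) of the WT anchors and 30.0% (28.0 to 32.1) of the eGFP-YAP anchors. In the shared sorbitol loops it was 12.6% and 15.6%, in all control loops 5.74% and 7.7%, in the other line's control loops of the comparison set 6.5% and 5.41%, and in all bins of the genome 3.07%. The other sorbitol-only loops had as many or more, 1043 of 4742 WT anchors (20.8 to 23.2%) and 30.3% (28.8 to 31.7) with 1 control anchor and 29.3% (27.6 to 31.0) and 34.9% (32.8 to 37.1) with none, so a high share was not particular to the re-pairing loops. By arrangement, facing loops had a gene start in 14.9% (12.5 to 17.7) and 18.8% of their anchors, in-line loops in 22.7% and 32.1%, and back-to-back loops in 40.4% (31.1 to 50.5) and 47.4%. Under 200 kb the share in back-to-back loops was 41.1% (29.2 to 54.1) in WT, against 39 of 186 anchors (15.7 to 27.4) in facing loops. In-line loops had 25.9% (21.1 to 31.4) and mixed loops 22.7% (16.4 to 30.6), with intervals that overlapped that of back-to-back loops. In eGFP-YAP the back-to-back share was 46.0% (36.6 to 55.7), beside 43.0% (37.1 to 49.1) in in-line and 40.2% (33.7 to 47.0) in mixed loops. Facing loops had 30.0% (21.9 to 39.6), and their interval overlapped that of back-to-back loops too, so back-to-back loops did not separate from any class there. At 200 kb and over, back-to-back loops had 39.5% in WT against 12.5% to 20.5% in the other classes, and 26 of 52 anchors (36.9 to 63.1) in eGFP-YAP against 16.2% to 29.5%. Among the other line's control loops, back-to-back anchors held a gene start in 10.6% of cases for WT and 6.67% for eGFP-YAP, on 33 and 15 loops only.

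Gene starts at both anchors were found in 82 WT loops, 8.54%, and 148 eGFP-YAP loops, 15.6%, compared with 0.626% and 1.23% of all control loops. The share was 23.4% and 31.6% in back-to-back loops. It was also higher where no chain of control loops linked the anchors, at 13.6% and 20.1%, than where the common partner lay between them, at 1.25% and 5.48%. In the sorbitol-only loops with 1 control anchor, the share with one in both anchors was 9.03% in WT and 15.1% in eGFP-YAP, close to the values of the re-pairing loops.

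**Figure D3:**
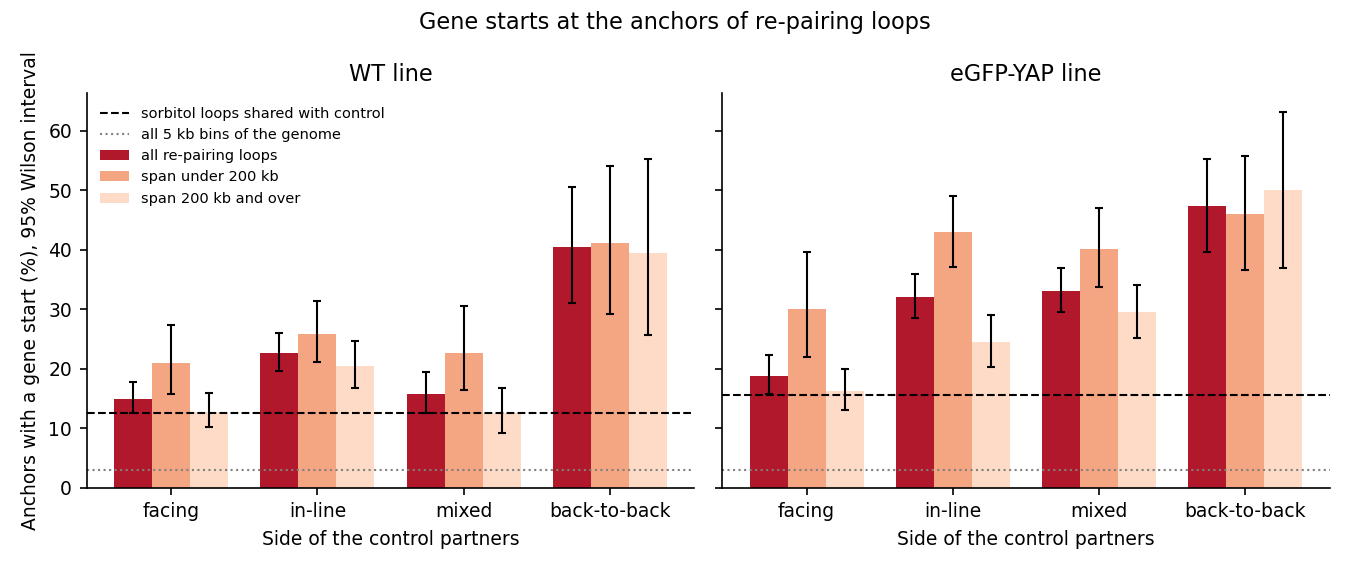
Share of re-pairing loop anchors with the start of a protein-coding gene (%), by arrangement of the control partners, for all loops and for 2 span classes, with 95% Wilson intervals. The dashed line is the share in sorbitol loops shared with control and the dotted line that of all 5 kb bins of hg38. Back-to-back loops have the highest share in each line.

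A CTCF motif match lay in 24.2% (22.4 to 26.2) of the WT anchors and 28.2% (26.3 to 30.3) of the eGFP-YAP anchors. These shares were below the 32.8% and 45.4% of shared loops and above the 18.4% and 19.8% of sorbitol-only loops with 1 control anchor and the 13.9% and 13.1% of those with none. In all control loops the share was 24.9% and 34.1%, so the WT intervals overlapped. Against the other line's control loops of the comparison set the lines differed in sign: the re-pairing loops were lower in WT, where the others had 35.3% (34.2 to 36.4), and higher in eGFP-YAP, where they had 24.0% (22.7 to 25.3). By arrangement, facing and back-to-back loops had a match in 26.4% and 23.4% of WT anchors, with overlapping intervals, and in 30.6% (26.8 to 34.7) and 19.1% (13.6 to 26.1) of eGFP-YAP anchors. Orientation could be read for 57 WT and 73 eGFP-YAP loops with matches on a single strand at each anchor. The motifs pointed towards each other in 29 and 42 of them, 50.9% (38.3 to 63.4) and 57.5% (46.1 to 68.2), compared with 66.9% (58.3 to 74.6) and 81.9% (77.6 to 85.6) of shared loops, so the WT intervals overlapped. In the other line's control loops the share was 71.3% (67.0 to 75.3) for WT anchors, above the re-pairing loops, and 51.7% (42.8 to 60.4) for eGFP-YAP anchors, with an interval that overlapped theirs. Facing loops had convergent motifs in 17 of 26 and 20 of 24 cases, in-line loops in 6 of 15 and 5 of 19, and back-to-back loops in 0 of 3 and 0 of 2.

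The new anchors held a gene start more often than the control anchors they were matched to. Of the WT anchors 34.5% were in the same bin as the nearest control anchor, 37.4% were 5 kb off it and 28.1% were 10 kb off. In eGFP-YAP the shares were 40.3%, 38.4% and 21.2%. Of the 1258 WT anchors off the control bin, 270 held a gene start in their own bin, 21.5% (19.3 to 23.8), and 141 in the control bin, 11.2% (9.58 to 13.1). Of 1135 such eGFP-YAP anchors, 353 held one in their own bin, 31.1% (28.5 to 33.9), and 199 in the control bin, 17.5% (15.4 to 19.9). The motif was less frequent in the new bin than in the control bin, with 19.6% against 26.2% in WT and 18.9% against 33.3% in eGFP-YAP.

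Shared loops off the control bin also had more gene starts in their sorbitol bin, 14.7% against 8.99% in WT and 16.7% against 12.2% in eGFP-YAP. The other line's control loops did not, with 6.29% against 6.26% for WT anchors and 4.43% against 6.5% for eGFP-YAP anchors. The lower motif share was present in other sets too. Shared loops had 24.0% in the sorbitol bin against 33.4% in the control bin in WT and 26.8% against 42.5% in eGFP-YAP. The other line's control loops, which had no sorbitol, had 16.0% against 30.8% for eGFP-YAP anchors, and 29.7% against 27.2% for WT anchors. Around the re-pairing anchors the gene starts peaked at the called bin. In eGFP-YAP the share fell from 30.0% there to 13.4% and 13.1% at 5 kb on either side, and in WT from 19.1% to 11.7% and 11.6%.

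**Figure D4:**
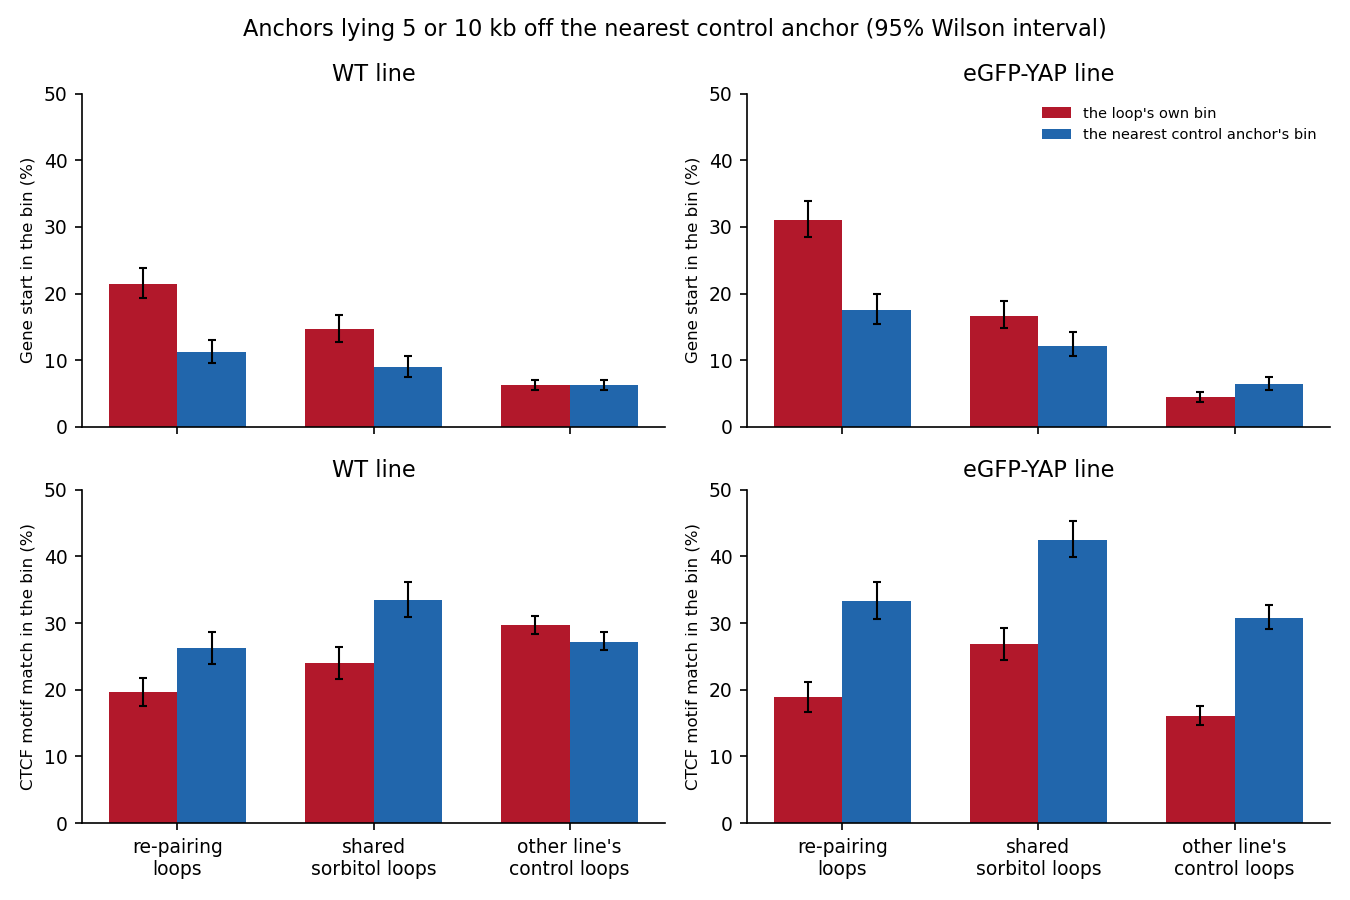
Share of bins (%) with a gene start (upper panels) or a CTCF motif match (lower panels) for anchors that lay 5 or 10 kb off the nearest control anchor, in the loop's own bin (red) and in the control anchor's bin (blue), with 95% Wilson intervals. Re-pairing loops and shared sorbitol loops have more gene starts in their own bin, and the other line's control loops do not. For the motif, the bars of the other line's control loops fall in eGFP-YAP as well.

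A total of 61 re-pairing loops were found in both lines, 6.35% of the WT and 6.41% of the eGFP-YAP loops, with both anchors within 10 kb. This counts only loops that met the rule in each line. In the other line's sorbitol list as a whole, 22.3% of the WT and 20.7% of the eGFP-YAP re-pairing loops were present, close to the 18.9% and 20.7% of sorbitol-only loops with 1 control anchor and to those with none (305 of 1389 and 23.4%), and below the 39.1% and 35.0% of shared loops. Of the 61, 37 had no control loop within 25 kb in either line. The arrangement class was the same in both lines for 33 and the kind of link for 20, so the control context of a loop found in both often differed. Of the WT re-pairing loops 24.7% had a counterpart among the other line's control loops, and of the eGFP-YAP ones 10.5%, so these loops were also called without sorbitol in the other line. For sorbitol-only loops the share was 12.6% and 7.16% with 1 control anchor and 6.12% and 2.09% with none. For shared loops it was 65.5% and 55.3%. Among the re-pairing loops the share was lowest for back-to-back loops, at 2.13% and 2.63% of only 47 and 76 loops. It was highest for loops with the common partner between the anchors, at 48.8% and 23.3%. The other line's control loops of the comparison set were themselves rarely back-to-back, at 0.918% and 0.732%.

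Among the loops found in both lines that no chain of control loops linked in WT, the highest mean score percentile (99.1 in either list) was that of a loop on the X chromosome, with its right anchor at SMIM10L2B. It joined chrX:134995001-135000000 to chrX:135090001-135095000, 95 kb apart. In WT its left anchor had 1 control loop, of 510 kb, to a bin within HPRT1, the purine salvage enzyme, on the far side, and its right anchor had 1 of 125 kb that passed the left anchor and ended 35 kb beyond it. In eGFP-YAP the anchors had 2 and 3 control loops, 1 of which ended 15 kb from the new loop. That control loop lay within 10 kb of the WT loop at both anchors, so the WT loop was called in untreated eGFP-YAP cells.

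The STX7 loop joined chr6:132275001-132280000 to chr6:132480001-132485000, 205 kb apart, at score percentiles of 98.2 in WT and 98.4 in eGFP-YAP. Its left anchor, which lies in no protein-coding gene, and its right anchor both had a control loop to the same bin region to the left, of 345 and 555 kb in WT. The right anchor had a second control loop of 185 kb into MOXD1, which stopped 25 kb short of the left anchor. The WT bins carry the convergent motif pair shown above, while in eGFP-YAP the left bin, 5 kb to the right, had no match. At 10 kb, the control lists of both lines had no matching loop. The nearest control loop, the one into MOXD1, was at 25 kb in WT and 20 kb in eGFP-YAP. Its control score percentiles were 87.3 and 96.6, so the STX7 loop differs little in position from a high-scoring control loop.

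On chromosome 21 a facing loop joined chr21:45975001-45980000 to chr21:46235001-46240000 in WT, 260 kb apart, at a score percentile of 91.3. Each anchor had a control loop to the same bin within FTCD, of 175 kb from the left and 80 kb from the right, so the new loop spanned both. In eGFP-YAP the loop was at 98.8 and its bins held the starts of COL6A1, a chain of collagen VI, and LSS, the lanosterol synthase of cholesterol synthesis. There the nearest control loop was 15 kb away, and it lay within 10 kb of the WT loop at both anchors, so the WT loop was called in untreated eGFP-YAP cells.

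Of the loops with a gene start in both anchors, the 5 with the highest mean percentile are given here. The first joined a bin with the starts of C6orf120 and WDR27 to the bin shared by PSMB1, a proteasome subunit, and TBP, the TATA-binding protein, 850 kb apart on chromosome 6, at percentiles of 99.4 and 97.0. It had a control loop at 15 and 20 kb and so differs little from a control loop. The CHCHD4 bin was joined to the bin with the starts of LSM3, an RNA-binding protein of splicing and decay, and XPC, a DNA damage sensor, 55 kb away on chromosome 3, at 90.6 and 62.4. In WT the nearest control loop was at 180 kb and both anchors had control loops, of 215 and 275 kb, to a common partner on the left. In eGFP-YAP one lay at 15 kb.

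The other 3 had no control loop within 25 kb in either line. MYORG, a glycosidase, was joined to RPP25L across 235 kb of chromosome 9 at percentiles of 85.8 and 26.7. In WT its left anchor had 2 control loops, of 45 and 110 kb, both away from the new partner, and its right anchor 1 of 165 kb into FAM219A, towards it. H3-3B, which encodes histone H3.3, was joined to MRPL38, a mitochondrial ribosomal protein, across 120 kb of chromosome 17 in WT at 75.1. In eGFP-YAP nearby bins, with the starts of UNK and TRIM65, were joined at 31.8. In either line the left anchor had a control loop of 45 or 60 kb to UNC13D towards the new partner, and the right anchor one of 105 or 95 kb to a bin with the start of CDK3, away from it. CYP46A1, the cholesterol 24-hydroxylase, was joined to EVL, an actin regulator of the Ena/VASP family, across 290 kb of chromosome 14 at 52.9 and 68.7. Its left anchor had a control loop into EML1 towards EVL and one into the CCDC85C and CCNK region away from it in either line, while the EVL anchor had control loops only to the far side, 3 in WT and 1 in eGFP-YAP.

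Of the loops found in both lines the longest covered 1095 kb, from chr4:120155001-120160000 to chr4:121250001-121255000, and carries the second motif pair. It was facing in either line. Its left anchor had 5 control loops in each line, of 545 to 1160 kb in WT and 565 to 940 kb in eGFP-YAP, while its right anchor had 1, of 60 kb, to a bin within TNIP3. No control loop ended within 25 kb of both of its anchors.

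The next 2 loops had anchors linked through other control loops. The loop from CUBN, the receptor cubilin, to ST8SIA6, a sialyltransferase, spanned 595 kb of chromosome 10. In WT its left anchor had 7 control loops and its right anchor 2, and in eGFP-YAP 5 and 2. On chromosome 15, a facing loop of 590 kb in WT had 6 and 5 control loops at its anchors, among them 1 from either side to a bin with the start of FOXB1, a forkhead transcription factor. A control loop lay within 25 kb of both of these loops in either line, and the eGFP-YAP version of the chromosome 15 loop was called in the WT control list.

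Only 2 loops were back-to-back in both lines, and they are named because of that count, after their values were seen. One joined chr1:1905001-1910000 to FAAP20, a Fanconi anaemia pathway subunit, 295 kb away in WT and 300 kb in eGFP-YAP, at percentiles of 92.2 and 96.3. Its left anchor had control loops of 80 and 120 kb to the left in WT and 1 of 110 kb in eGFP-YAP, and its right anchor 1 of 190 or 35 kb to the right. The other joined chr14:101945001-101950000 to a bin at WDR20, 195 and 190 kb away, at 63.2 and 67.6. In eGFP-YAP that right bin held the starts of HSP90AA1, the stress-induced HSP90 chaperone, and WDR20. Its left anchor had 1 control loop of 250 kb in WT and 3 of 140 to 235 kb in eGFP-YAP, all to the left, and its right anchor 1 of 170 or 175 kb to the right.

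**Figure D5:**
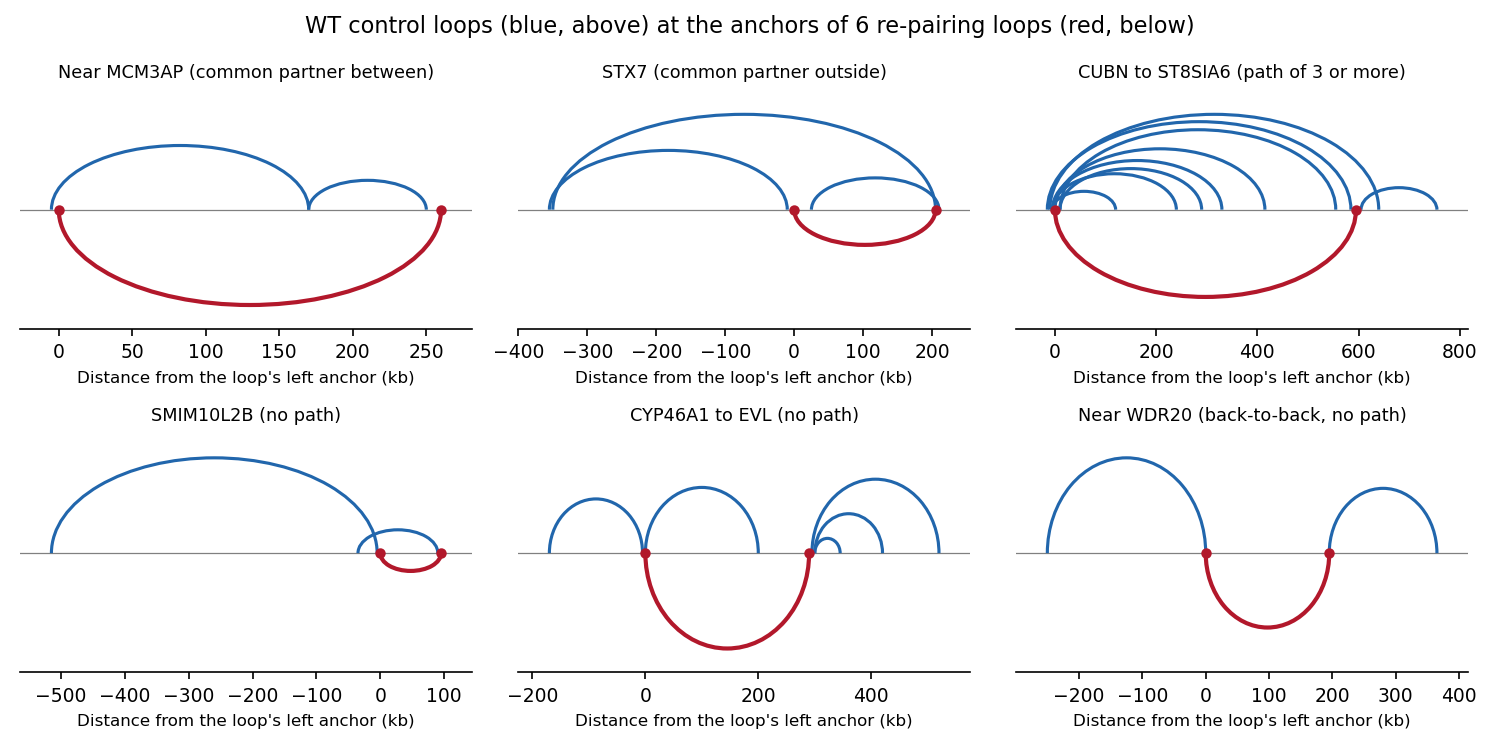
WT control loops (blue arcs, above) at the anchors of 6 re-pairing loops (red arcs, below), drawn to scale along the axis as distance from the left anchor (kb). Arc height is scaled to span within a panel. The control loops of the MCM3AP panel end at a common partner between the anchors, and those of the WDR20 panel lead away on both sides. In the STX7 panel each anchor has a control loop to a common partner outside. The right anchor there also has a shorter one into MOXD1, between the anchors.

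Most anchors took part in a single re-pairing loop: 78.6% of 1805 WT anchor bins and 78.3% of 1768 eGFP-YAP bins had 1 within 10 kb. The WT site with most had 6, on chromosome 8, and 1 control loop of 75 kb. Its new partners lay 155 to 475 kb to the left in 5 cases and 75 kb to the right, in a bin within ZNF703, in 1. In eGFP-YAP 2 sites had 5 each. The site at the start of PCBP3, an RNA-binding protein, on chromosome 21 had control partners 85 kb to the left and 175 kb to the right, and its new partners included the COL6A1 bin 340 kb to the right and 2 bins 1190 and 1300 kb to the left. The site within SKIC2, a helicase of RNA decay, on chromosome 6 had 5 control partners, all 95 to 290 kb to the left. Its new partners were the bins with the starts of NFKBIL1, of BAG6 and APOM, and of VARS1 on the left, 415, 310 and 165 kb away, and those at ATF6B and PBX2 on the right, 165 and 225 kb away, a side on which the control list gave it none.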

How the data were processed

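Loop lists of untreated and sorbitol-treated WT and eGFP-YAP cells were used, 1 list per condition. The labels' protocols describe in situ Hi-C with MboI. The deposited loop positions and scores come from lists whose column names, per the file headers, are those of the SIP caller. The caller's settings, the normalization of the maps, the replicates pooled and the sequencing depth are not given in the sources used here. The genome build, hg38, is named in the submitters' processing notes, and all positions lay within its chromosome lengths. The deposited score of a loop was ranked within its list. Anchor order was sorted (2, 1, 1 and 0 loops), and no column was left without a group (0).

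Loops matched when both anchors lay within 10 kb, and the same distance applied at every step of a chain of control loops. Genes came from GENCODE release 44. Shares have Wilson 95% intervals and medians have intervals from order statistics. Computations used Python 3.11.15, numpy 2.4.6, pandas 2.3.3, scipy 1.17.1 and matplotlib 3.10.9, and the arrangement and motif code was tested on simulated data. The members, lists and comparisons were chosen with earlier results of these data known.

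Loops named in the text were found in both lines and ranked highest by mean score percentile: 2 for each kind of link in WT, 5 with gene starts in both anchors, 2 with the motif in both anchors and the longest, at most 1 per chromosome in each set, plus the sites with most re-pairing loops. One loop that this rule names is not reported here. The other 18 samples were not used here.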

Additional observations from a re-analysis of the deposited data

Results flagged for a closer look

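In 7 of the comparisons made with the other line's control loops, the WT and eGFP-YAP differences had opposite signs. These differences between lines were not tested, each line has 1 list per condition, and the comparison set comes from the other line in either case.

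The share of re-pairing loops whose anchors no chain of control loops linked was lower than that of the other line's control loops in WT, by -4.4 percentage points, and higher in eGFP-YAP, by 13.7. The WT intervals of the shares touched (42.0 to 48.3 and 47.9 to 51.1). With loops within 25 kb of a control loop left out, the differences were -0.8 and 17.2 percentage points, and the WT intervals overlapped. The share of in-line loops, with the same loops left out, was higher by 6.3 percentage points in WT and lower in eGFP-YAP, at -3.9, where the intervals overlapped.

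The CTCF motif differed by -11.1 percentage points in WT and 4.2 in eGFP-YAP, with intervals apart in both. Convergent motifs differed by -20.4 and 5.8 percentage points, and the eGFP-YAP intervals overlapped. The median ratio of the new span to the nearest control span differed by -0.12 and 0.12, and with loops within 25 kb of a control loop left out by -0.16 and 0.3.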

How the results depend on the processing

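The 8 main values were recomputed per line, and a value counts as moved when it left the 95% interval of the reported one, or, for the number of loops, changed by over 1.5 times. Counting loops within 10 kb of each other once changed nothing, since no re-pairing loops lay so close. Counting those within 50 kb once, an alternative added after seeing the data, left 900 and 907 loops and moved none of the 8. Values are given for WT and eGFP-YAP in turn. With matching within 5 kb, a common partner was found for 17.7% and 24.4%, facing loops were 37.5% in eGFP-YAP and 47.1% in WT, the span ratio was 1.06 and 1.09, control loops called again were 8.36% and 12.1%, interleaving was 70.6% in WT, loops found in both lines were 3.71% and 3.1%, and anchors with gene starts 14.9% and 26.0%. With matching within 25 kb these were, in that order, 39.1% and 43.5%, 21.3% and 14.9%, 1.23 and 1.25, 24.3% and 24.3%, 53.9% and 63.7%, 13.2% and 14.0%, and 24.6% and 34.3%. Within the upper 50% of both lists by score, 218 and 216 loops remained by the rule, facing loops were 44.5% and 42.6%, interleaving 47.2% and 48.1%, loops found in both lines 4.59% and 4.63%, and anchors with gene starts 15.6% and 19.4%. Without loops that had a control loop within 25 kb, 555 loops were left in WT, facing loops were 27.7% and 20.6%, the span ratio was 1.3 and 1.3, control loops called again 14.5% and 18.0%, interleaving 70.5% and 73.6%, and anchors with gene starts 23.5% and 33.2%. Gene starts were found at 35.5% and 49.9% of anchors widened by 5 kb on each side, and at 26.6% and 40.4% with genes of all types. In another added alternative, which left out loops that the other line's control list also held, facing loops in WT were 33.3% and interleaving 71.4%. The cause of these shifts was not tested, beyond the fewer loops that some settings leave.

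The comparisons were steadier than the levels. Facing loops were a smaller share, and back-to-back loops and gene starts a larger share, of the re-pairing loops than of the other line's control loops under 5 kb and 25 kb matching, in the upper 50% and without loops within 25 kb, in each line. In the upper 50% the intervals overlapped for facing loops in eGFP-YAP (42.6% against 48.8%) and for back-to-back loops in WT (3.67% against 1.17%). None of these settings held span fixed, and among WT loops under 200 kb the facing shares did not separate (28.5% against 28.0%). A common partner was less frequent than in the other line's control loops except in WT with matching within 5 kb, at 17.7% against 17.2%. In WT the intervals overlapped at 10 kb, in the upper 50% (22.5% against 24.2%) and without loops within 25 kb (25.4% against 28.6%). They overlapped in eGFP-YAP with matching within 5 kb (24.4% against 27.9%). The depth behind the lists is unknown, and 1 list per condition sets the limit on every comparison.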
